A study of Mus musculus with 28 samples.

Results

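The genes described here carry the symbol of an interleukin, a chemokine or a member of the tumour necrosis factor (TNF) family, or of one of their receptors. They were chosen by name alone: a symbol that begins with Il, Cxcl, Cxcr, Ccl or Ccr followed by a digit, or with Tnf, leaving out 3 interleukin genes that the rule sets aside. The rule found 119 of the 14711 genes listed in any of the 6 deposited comparison tables, and 82 of the 119 stood in all 6. By role they are 16 CC chemokines, 7 CXC chemokines, 12 chemokine receptors, 17 interleukins, 30 interleukin receptors, 2 antagonists or binding proteins (Il1rn and Il18bp), 9 TNF family ligands, 18 TNF family receptors, 7 genes named as TNF-induced (Tnfaip) and the enzyme gene Il4i1.

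RNA was sequenced from hippocampal CA1 of C57BL/6 mice 3 to 4 weeks old, either CaMK2a-Cre/+; LSL-Rpl22-HA/+ or PV-Cre/+; LSL-Rpl22-HA/+. In all groups, controls included, Cre therefore puts an HA tag on Rpl22, a protein of the large ribosomal subunit, in cells that express CaMK2a (mainly excitatory neurons in forebrain) or parvalbumin (PV, a class of inhibitory interneurons). Mice were given kainic acid (KA), a glutamate receptor agonist that provokes seizures, or phosphate buffered saline (PBS) by intraperitoneal injection, and per the labels tissue was taken 6 h later. In the column names, however, the PBS groups bear a time that precedes this, and which of them is right was not settled here. Each lysate gave an anti-HA immunoprecipitate (IP), enriched in RNA on tagged ribosomes, and a small part kept before the IP (input), which holds RNA of all cells of the tissue. The 8 groups are KA IP, PBS IP, KA input and PBS input of the CaMK2a line, with 3 libraries each, and KA IP, PBS IP, KA input and PBS input of the PV line, with 4 libraries each. A library stands for a pool of 4 mice in the CaMK2a line and of 9 to 10 mice in the PV line, so differences between single animals are not seen, and p-values measure the spread between pools.

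Chemokines are small secreted proteins that bind G-protein-coupled receptors and steer the movement of leukocytes and microglia. Interleukin 1 (IL-1) and TNF bind receptors that activate the transcription factor NF-kB, which in turn switches on chemokine genes and its own inhibitors. In the rodent hippocampus, seizures are known to raise IL-1, TNF and the chemokine CCL2, and glia are a known source of them.

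Ccl3, Il1r1, Tnfaip6 and Tnfrsf12a were higher after KA in the IP and in the input of both lines, and their promoters are shown because these are the members called in all 4 fractions. This set depends on the filter and the fit. With no filter it held 10 members, with Ccl2, Ccl4, Cxcl1, Cxcl2, Il11 and Il1rn added. With DESeq2 it held 7, with Cxcr4, Il17ra and Tnfrsf1a added, and with the stricter filter 5, with Cxcr4 added. With the 4 groups of a line fitted together it held 11, among them Ccl3 and Tnfaip6 but not Il1r1 or Tnfrsf12a. In mm10 (GRCm38) Ccl3 lies at chr11:83647843-83649378 on the minus strand, Il1r1 at chr1:40225014-40316192 on the plus strand, Tnfaip6 at chr2:52038113-52056681 on the plus strand and Tnfrsf12a at chr17:23675445-23677449 on the minus strand. Each line below gives the 250 bases before a transcript start from RefSeq (GRCm38.p6), 5′ to 3′ on the strand of the gene, with matches to a searched motif in capitals. Il1r1 has a promoter for each of its 2 listed starts, the upstream one at chr1:40224830-40225079 and the downstream one at chr1:40266336-40266585. The other promoters are chr11:83649379-83649628 for Ccl3, chr2:52037863-52038112 for Tnfaip6 and chr17:23677450-23677699 for Tnfrsf12a.
Ccl3: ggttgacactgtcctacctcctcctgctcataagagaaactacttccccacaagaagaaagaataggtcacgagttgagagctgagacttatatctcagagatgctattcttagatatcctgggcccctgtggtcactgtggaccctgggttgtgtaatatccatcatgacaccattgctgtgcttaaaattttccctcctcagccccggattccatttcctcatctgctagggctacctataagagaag
Il1r1, upstream start: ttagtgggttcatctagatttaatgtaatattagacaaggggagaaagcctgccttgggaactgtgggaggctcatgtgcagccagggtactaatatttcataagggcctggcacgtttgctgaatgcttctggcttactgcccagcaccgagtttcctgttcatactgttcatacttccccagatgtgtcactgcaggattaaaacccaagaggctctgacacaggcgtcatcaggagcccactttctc
Il1r1, downstream start: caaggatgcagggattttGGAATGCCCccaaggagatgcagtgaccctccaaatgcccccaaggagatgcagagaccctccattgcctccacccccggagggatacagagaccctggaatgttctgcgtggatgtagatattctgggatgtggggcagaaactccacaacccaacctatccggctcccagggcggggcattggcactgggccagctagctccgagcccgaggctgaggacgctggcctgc
Tnfaip6: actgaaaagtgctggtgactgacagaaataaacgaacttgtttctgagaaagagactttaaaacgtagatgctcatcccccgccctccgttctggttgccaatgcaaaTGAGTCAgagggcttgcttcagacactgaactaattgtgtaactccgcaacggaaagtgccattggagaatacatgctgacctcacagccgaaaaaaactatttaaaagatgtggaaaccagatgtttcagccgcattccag
Tnfrsf12a: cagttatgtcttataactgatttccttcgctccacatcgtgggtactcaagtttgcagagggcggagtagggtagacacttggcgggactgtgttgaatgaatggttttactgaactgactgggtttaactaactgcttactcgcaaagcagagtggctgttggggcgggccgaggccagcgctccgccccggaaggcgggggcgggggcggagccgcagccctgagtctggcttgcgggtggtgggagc
The motifs searched on both strands were GGGNNTTCC for NF-kB, TGANTCA for AP-1 and TGACGTCA for the cyclic AMP response element. The downstream Il1r1 promoter holds the NF-kB letters on the reverse strand, printed as GGAATGCCC, 232 to 224 bases before the start. The Tnfaip6 promoter holds the AP-1 letters TGAGTCA, 142 to 136 bases before the start, and the other 3 promoters hold none of the motifs. Of all 32851 RefSeq promoters, 4.98% hold the NF-kB letters, 6.75% the AP-1 letters and 1.55% the response element. Among the members, 90 of 119 had a promoter in the table, and 10 of their 105 promoters (9.52%) hold the NF-kB letters, 15 (14.3%) the AP-1 letters and 0 the response element. Among the 25 members that were higher after KA in any fraction, 20 had an entry, and of their 24 promoters 4 (16.7%) hold the NF-kB letters and 6 (25%) the AP-1 letters. A match says only that the letters are present.

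The 28 libraries held 6.06 to 15.8 M counted reads , and most members were low. Of the 119, 17 never reached 10 counts in a library, and over the 8 groups only 26 to 49 members reached 10 counts in each of a group's libraries. Listed members with a total of at least 10 counts sometimes had 80% or more of them in 1 library, which was so for 9 of 81 members in PV PBS IP and 8 of 81 in PV KA IP, against 0 to 5 in the other groups. PV libraries numbered 4 deviated together from their group means (r = 0.362 between the KA and PBS IP libraries and 0.616 between the KA and PBS inputs), so results that rest on them are given without them as well. PV interneuron markers were higher in PV IP than in input for 11 of 11 tested genes after KA and 10 of 11 after PBS. CA1 pyramidal markers were higher in CaMK2a IP for 8 and 10 of 11, and 1 was lower after each treatment. Of all genes, 6.85% after KA and 10.6% after PBS were higher in PV IP. In CaMK2a IP 24.3% and 32.6% of all genes were higher and 25.8% and 31.6% lower. Cells of other types also differ between fractions: the 14 microglia markers summed to 75.4 to 144 CPM in CaMK2a KA IP and 57.3 to 88.0 in PBS IP, against 660 to 855 in KA input and 595 to 617 in PBS input. In the PV line this sum was 193 to 222 in KA IP and 137 to 220 in PBS IP, against 428 to 652 in KA input and 430 to 521 in PBS input. CPM values are counts scaled to library size with TMM factors over all 28 libraries, and in bulk tissue fewer cells of a type and less RNA per cell cannot be told apart.

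Among tested members, more rose than fell after KA. In CaMK2a IP, 13 of 37 tested members (35.1%) were higher than after PBS and 4 were lower, where 19.8% of all genes tested were higher and 15.3% lower. In CaMK2a input, 21 of 60 (35%) were higher and 4 lower, beside 19.3% and 15.7% of all genes. In PV IP, 8 of 50 (16%) were higher and 0 lower, beside 4.05% and 0.801% of all genes, and in PV input 21 of 55 (38.2%) were higher and 1 lower, beside 8.21% and 3.36%. With upper-quartile factors the shares over all genes in CaMK2a IP were 15.7% higher and 21.3% lower, and the members' counts stayed at 13 and 4. In PV IP, 15 of the 50 tested members had an unadjusted p under 0.05 and all 15 were higher. Of all 11107 genes tested there, 1763 had one, in either direction. The median log2 fold change of the tested members was 0.31 in CaMK2a IP, 0.23 in CaMK2a input, 0.23 in PV IP and 0.57 in PV input, and over all genes tested it was 0.01 in CaMK2a IP and −0.02 in the other 3 fractions. A member entered the tests only where its counts passed a minimum, so these shares are of tested members and not of all 119. Some entered through their KA libraries alone and could only be called higher. In CaMK2a input these include Il1rn (121 counts against 0) and Tnf (50 against 0). The filter thus fixes part of the share that was higher. Calls here and throughout are edgeR quasi-likelihood tests with a Benjamini-Hochberg adjusted p under 0.05 over all genes, and a log2 fold change is given ± SE, KA over PBS.

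Across the 4 fractions 64 members were tested in at least 1, and 30 of them were called: 25 higher, 5 lower and none in both directions. Of the 25, 13 were higher in at least 3 fractions. Calls across fractions and overlaps of lists were not counted over all genes, so the counts in this paragraph have no background. The lists of higher members in the 2 inputs shared 19 genes, which are 90.5% of the 21 of CaMK2a input and 90.5% of the 21 of PV input. Among the shared genes, Ccl2, Ccl4 and Il1rn had 0 counts in PV PBS input and could only be called higher there. Between the inputs, Il17d and Tnf were called in CaMK2a and not in PV, and Cxcl2 and Il1a in PV and not in CaMK2a. Fitting the 4 groups of each line together ended the PV input calls of Ccl9, Cxcl10, Il13ra1, Il1a, Il1r1, Il4ra, Tnfrsf12a, Tnfrsf1b and Tnfrsf21, and the CaMK2a input calls of Il13ra1, Il17d, Tnfrsf13b and Tnfrsf1b. Upper-quartile factors ended those of Ccl9 and Il4ra in PV input and of Il17d in CaMK2a input. The lists of the 2 IPs shared 4, which are 30.8% of the 13 of CaMK2a IP and 50% of the 8 of PV IP. Fitting the 4 groups together added 9 calls in CaMK2a IP (Ccl12, Ccl2, Ccl4, Cxcl1, Cxcl10, Il1rn, Tnf, Tnfaip8 and Tnfrsf1b) and 12 in PV IP (Ccl11, Ccl12, Ccl7, Ccl9, Cxcr4, Il11, Il17ra, Il1a, Il1rn, Tnf, Tnfaip3 and Tnfrsf1a), all higher. The 2 IP lists then shared 16 members, 72.7% of 22 and 80% of 20. With no filter they shared 10, which are 50% of 20 and 100% of 10. With DESeq2 they shared 8, which are 61.5% of 13 in each. The overlap of the IP lists thus depends on the fit. A call in 1 fraction and not in another is not a tested difference, and those tests are given further on.

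Some CC chemokines were called higher in each fraction. Of those tested, 2 of 5 were higher after KA in CaMK2a IP, 6 of 10 in CaMK2a input, 3 of 8 in PV IP and 6 of 9 in PV input, and 0 were lower. Counts by role or gene cluster after KA, here and below, stand beside 19.8%, 19.3%, 4.05% and 8.21% of all genes higher in that order. The shares of all genes lower were 15.3%, 15.7%, 0.801% and 3.36%. Ccl3, which encodes MIP-1alpha, a ligand of Ccr1, had the most counts after KA among the CC chemokines that rose. In CaMK2a input it measured 59.5, 28.9 and 70.7 CPM after KA, against 0.333, 0.634 and 1.19 CPM after PBS (log2 fold change 6.30 ± 0.39, adjusted p = 8.5e-10). In PV input it measured 27.4, 26.4, 44.8 and 91.8 CPM after KA, against 0.562, 0, 0.228 and 0.158 CPM after PBS (7.59 ± 0.64, adjusted p = 1.3e-05). Both inputs separate completely, with every KA library above every PBS library. In CaMK2a IP it measured 11.0, 2.78 and 8.69 CPM after KA, against 0, 0.129 and 0 CPM after PBS, 189 counts against 1, a ratio of 245-fold with a 95% interval of 43.5 to 9746 (adjusted p = 0.00023). PV IP held 18.9, 10.4, 26.6 and 29.4 CPM of Ccl3 after KA, against 0, 0.469, 0 and 2.31 CPM after PBS (4.85 ± 0.92, adjusted p = 0.0038). PBS replicate 4 holds 32 of the 38 counts of PV PBS IP, and without it the log2 fold change was 6.95. Such ratios of small counts carry a 95% exact interval that covers counting error only.

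Ccl2 (MCP-1, the main ligand of Ccr2) and Ccl4 (MIP-1beta) were at or near 0 after PBS in every fraction. Ccl2 measured 12.6, 10.2 and 12.4 CPM in CaMK2a KA input, against 0.0833, 0.0906 and 0.925 CPM in PBS input (5.22 ± 0.47, adjusted p = 1.2e-07). Ccl2 reached 4.58, 3.48, 5.30 and 4.58 CPM in PV KA IP and 8.79, 6.06, 4.27 and 16.4 CPM in KA input, against 0 in all 8 PBS libraries. Set against a floor of 3 counts over the group, that is at least 75.4-fold higher in IP (adjusted p = 0.0013) and at least 126-fold higher in input (adjusted p = 0.0003). In CaMK2a IP Ccl2 was too low to enter the test, with 40 counts after KA against 1 after PBS, a ratio of 51.9 with a 95% interval of 8.80 to 2103. It was called there with no filter (adjusted p = 0.019), and KA replicate 2 of that group had 0 counts. Without that library it entered the test and passed (adjusted p = 0.0004). That fit leaves out the KA library without reads, so it adds no support for a rise. Ccl4 measured 8.70, 2.74 and 11.5 CPM in CaMK2a KA input, against 0.0833, 0 and 0 CPM in PBS input, 173 counts against 1 (221-fold with a 95% interval of 39.1 to 8759, adjusted p = 1.5e-06). In the PV line it was at least 68.4-fold higher in KA IP, at 4.76, 3.29, 5.90 and 3.02 CPM (adjusted p = 0.0016), and at least 97.7-fold higher in KA input, at 3.23, 3.14, 7.29 and 13.6 CPM (adjusted p = 0.00084), with 0 counts in all PBS libraries. Every KA library of the PV line thus held Ccl2 and Ccl4 reads and no PBS library did.

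Ccl9, Ccl11 and Ccl12 encode further CC chemokines, Ccl11 being eotaxin, a ligand of Ccr3. Ccl9 already had reads after PBS, and in CaMK2a input it measured 14.8, 13.5 and 19.5 CPM after KA, against 4.91, 5.98 and 4.89 CPM after PBS (1.59 ± 0.22, adjusted p = 2.2e-05). In PV input it measured 10.7, 8.62, 19.0 and 17.3 CPM after KA, against 5.17, 5.38, 2.39 and 8.16 CPM after PBS (1.35 ± 0.38, adjusted p = 0.039). In CaMK2a IP it measured 3.97, 1.11 and 1.72 CPM after KA, against 0.386, 0.772 and 0.584 CPM after PBS (2.0 ± 0.60, adjusted p = 0.026). The KA and PBS values do not overlap in these 3 fractions. The CaMK2a IP call ended without KA replicate 1 or 3 or without any of the 3 PBS replicates (1.34 to 2.32, adjusted p up to 0.12), and with replicate number as a block. The PV input call ended without KA replicate 1 or 3 or PBS replicate 1, 2 or 3 (1.11 to 1.67, adjusted p up to 0.13).

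Ccl12 measured 6.91, 3.84 and 13.2 CPM in CaMK2a KA input, against 0.833, 0.272 and 0.396 CPM in PBS input (3.90 ± 0.52, adjusted p = 1.4e-05). In PV input it measured 4.91, 4.89, 5.91 and 11.2 CPM after KA, against 0, 0.211, 0 and 0.396 CPM after PBS (5.17 ± 0.72, adjusted p = 0.00052). Ccl11 in the same fractions held 62 counts after KA against 3 after PBS in CaMK2a input (26.3-fold with a 95% interval of 8.61 to 131, adjusted p = 8.9e-05) and 201 against 2 in PV input (113-fold with a 95% interval of 31.0 to 942, adjusted p = 0.00018). Each of the 7 KA input libraries held more Ccl11 and Ccl12 than any PBS input library of its line. In CaMK2a IP, by contrast, Ccl11 measured 0.529, 0 and 0.322 CPM after KA and 0.450, 0 and 0.487 CPM after PBS, 7 and 12 counts, which is too few to test. Ccl7, another Ccr2 ligand, was under the filter everywhere, with 6, 32, 45 and 63 counts in the KA groups of CaMK2a IP, CaMK2a input, PV IP and PV input, and 0 in all PBS groups. Ccl5 (RANTES) was untested in every fraction, with 17 counts in PV PBS IP, all in replicate 4, and 9 counts in PV KA IP.

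The rising CC chemokines sit in 2 gene clusters of chromosome 11, here taken as members with gaps under 500000 bases. Of Ccl2, Ccl7, Ccl11 and Ccl12 at chr11:82035577-82103399, 3 of 3 tested were higher in CaMK2a input, 1 of 2 in PV IP and 3 of 3 in PV input, and 0 were tested in CaMK2a IP. Of Ccl5, Ccl9, Ccl6, Ccl3 and Ccl4 at chr11:83525778-83664683, 2 of 2 were higher in CaMK2a IP, 3 of 4 in CaMK2a input, 2 of 3 in PV IP and 3 of 3 in PV input. Neighbouring genes are not independent observations. Ccl2 and Ccl4 had 0 counts in PV PBS IP and PV PBS input, so in those tests they could only be called higher. The filter thus fixes part of these counts and of those by role.

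**Figure D1:**
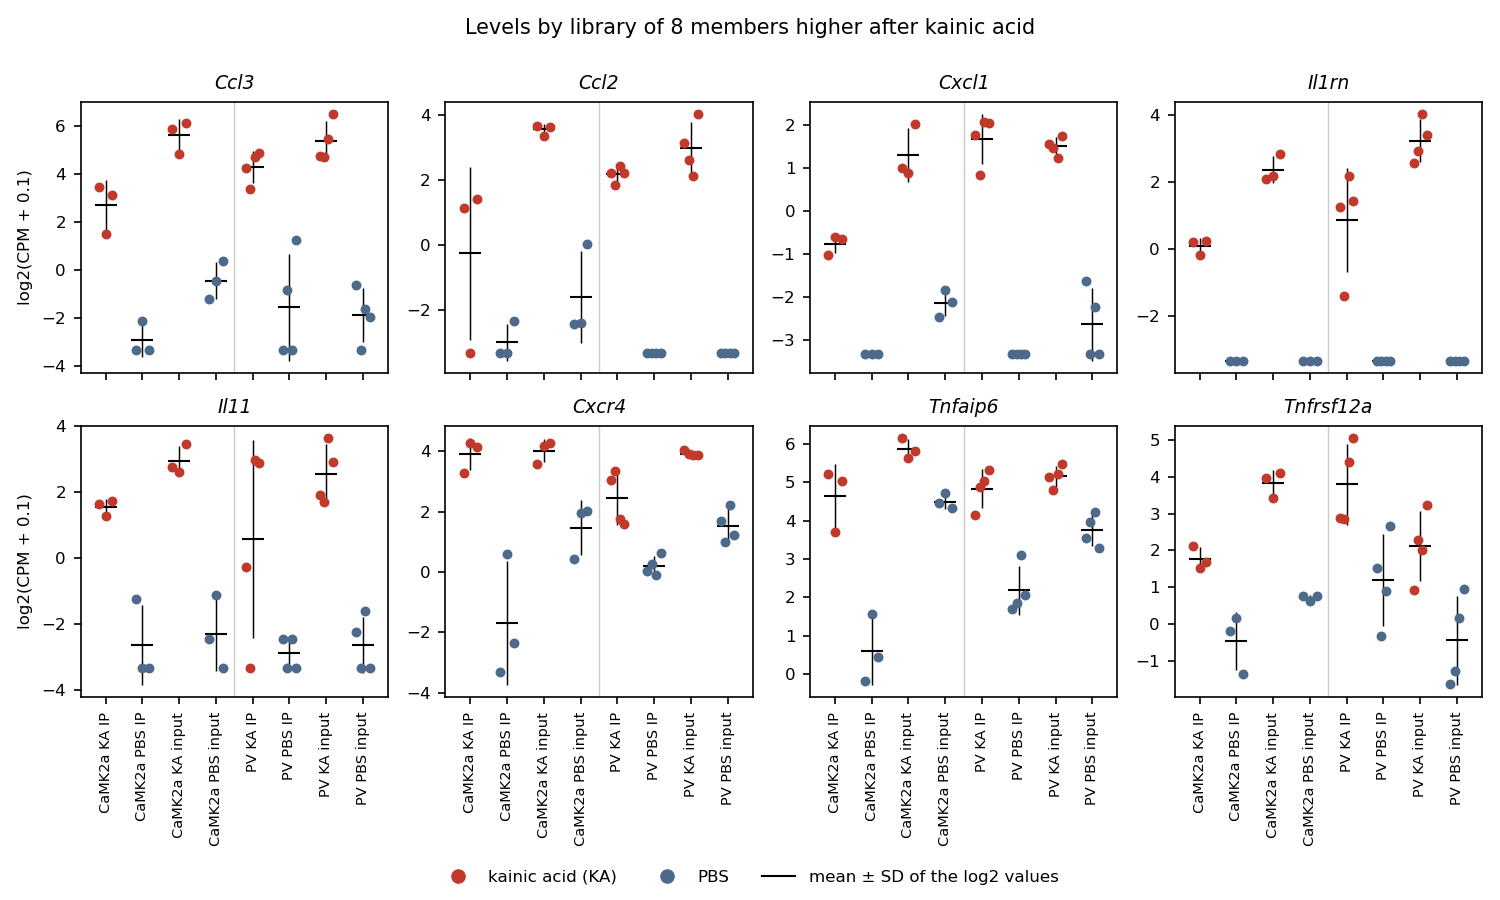
Level of 8 members in each of the 28 libraries, as log2(CPM + 0.1), with the 8 groups along each panel, KA left of PBS within a fraction, points for libraries and bars for mean ± SD. In the Ccl3 panel the KA libraries span 2.78 to 91.8 CPM and the PBS libraries 0 to 2.31 CPM.

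Among CXC chemokines, 0 of 2 tested were higher after KA in CaMK2a IP, 2 of 4 in CaMK2a input, 2 of 4 in PV IP and 3 of 5 in PV input, and 0 were lower. Cxcl1 and Cxcl2 encode ligands of the neutrophil receptor Cxcr2. Cxcl1 measured 1.91, 1.76 and 3.99 CPM in CaMK2a KA input, against 0.0833, 0.181 and 0.132 CPM in PBS input (4.12 ± 0.68, adjusted p = 0.00013). In PV IP it measured 3.30, 1.69, 4.10 and 4.04 CPM after KA, against 0 after PBS (at least 56.5-fold higher, adjusted p = 0.0031), and in PV input it held 99 counts against 3 (37.2-fold with a 95% interval of 12.4 to 184, adjusted p = 0.0011). Cxcl2 had no read in any PBS library of either line. After KA it measured 1.37, 1.79, 1.00 and 4.10 CPM in PV IP (at least 39.1-fold higher, adjusted p = 0.01) and 2.84, 3.14, 2.89 and 7.0 CPM in PV input (at least 56.0-fold higher, adjusted p = 0.00068). The PV IP call of Cxcl2 ended with PV replicates 1 to 3 only. In CaMK2a it was untested, with 16 counts in KA IP and 36 in KA input, at least 6.93-fold and 15.3-fold higher than the floor of PBS.

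Cxcl10 encodes an interferon-induced ligand of Cxcr3 and shares 133 exon bases with Art3 on the opposite strand. It measured 6.56, 3.29 and 4.14 CPM in CaMK2a KA input, against 1.67, 0.634 and 0.396 CPM in PBS input (2.28 ± 0.47, adjusted p = 0.001), and 4.40, 6.17, 8.17 and 9.46 CPM in PV KA input, against 0.450, 0, 0.684 and 1.19 CPM in PBS input (3.49 ± 0.65, adjusted p = 0.0041). In PV IP its KA values of 0, 0.0940, 5.80 and 5.91 CPM split into 2 libraries near 0 and 2 near 6. Cxcl12, the ligand of Cxcr4, did not pass in any fraction, with 40.0, 33.6 and 33.9 CPM in CaMK2a KA input against 37.1, 31.7 and 34.0 CPM in PBS input (0.067 ± 0.13, adjusted p = 0.73). Its log2 fold change was −0.087 ± 0.32 in CaMK2a IP, 0.40 ± 0.33 in PV IP and −0.16 ± 0.20 in PV input. Cxcl14, a chemokine of brain and skin, gave 0.11 ± 0.20 in CaMK2a IP, 0.21 ± 0.14 in CaMK2a input, −0.30 ± 0.33 in PV IP and 0.088 ± 0.19 in PV input, none past the threshold. Of the cluster Cxcl5, Cxcl1 and Cxcl2 at chr5:90759298-90905938, 1 of 1 tested was higher in CaMK2a input, 2 of 2 in PV IP and 2 of 2 in PV input. Cxcl1 in PV IP, and Cxcl2 in PV IP and PV input, had 0 counts after PBS and could only be called higher there. The filter thus fixes part of these counts and of those by role.

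Few of the 12 chemokine receptors could be tested, 1 in CaMK2a IP and 2 in each other fraction. Those under the filter could not be called. Only Cxcr4 was called. It measured 9.66, 19.2 and 17.6 CPM in CaMK2a KA IP, against 0, 1.41 and 0.0973 CPM in PBS IP (5.32 ± 0.73, adjusted p = 0.00043), with every KA library above every PBS library. PBS replicate 2 holds 11 of the 12 counts of that PBS group, and without it the log2 fold change was 8.26. In CaMK2a input it measured 11.9, 18.1 and 19.3 CPM after KA, against 1.25, 3.80 and 3.96 CPM after PBS (2.49 ± 0.32, adjusted p = 1e-05), and in PV input 16.3, 14.8, 14.5 and 14.6 CPM after KA, against 3.15, 1.90, 4.56 and 2.22 CPM after PBS (2.32 ± 0.30, adjusted p = 0.00033). In PV IP all 4 KA values, 8.25, 10.2, 3.30 and 2.89 CPM, lie above the PBS values of 0.931, 1.10, 0.839 and 1.44 CPM, and the difference missed the threshold (2.47 ± 0.73, adjusted p = 0.07). It passed with DESeq2 (2.48, adjusted p = 0.0064), the stricter filter (2.48, adjusted p = 0.035) and the 4 groups fitted together (2.46, adjusted p = 0.0017). After KA the CaMK2a IP and input values overlap. Cxcr2, the receptor of Cxcl1 and Cxcl2, was never tested, and its 106 counts in PV KA IP came from replicate 4 with 77 and replicate 1 with 29, against 0 in PV PBS IP.

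Of the interleukin ligands tested, 2 of 6 were higher after KA and 1 lower in CaMK2a IP, 2 of 5 higher and 1 lower in CaMK2a input, 0 of 5 in PV IP and 2 of 6 higher in PV input. Il11 encodes a gp130 cytokine. It measured 3.04, 2.33 and 3.22 CPM in CaMK2a KA IP, against 0.321, 0 and 0 CPM in PBS IP (4.23 ± 0.73, adjusted p = 0.0017). All 5 counts of that PBS group are in replicate 1, and without it the log2 fold change was 7.66. In CaMK2a input it measured 6.67, 6.04 and 10.9 CPM after KA, against 0.0833, 0.362 and 0 CPM after PBS (5.48 ± 0.55, adjusted p = 4.9e-07), and in PV input 235 counts stood against 3 (88.3-fold with a 95% interval of 29.9 to 431, adjusted p = 0.00039). In PV IP it was untested and uneven, with 0.733, 0, 7.70 and 7.30 CPM after KA and 2 counts in all after PBS.

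Il1a encodes IL-1alpha, an agonist of Il1r1, and shares 222 exon bases with Gm14023 on the opposite strand. It measured 1.59, 1.44 and 3.22 CPM in CaMK2a KA IP, against 0.129, 0.515 and 0 CPM in PBS IP (3.43 ± 0.78, adjusted p = 0.0074), and this call ended without KA replicate 3 or PBS replicate 1 (2.88 to 4.59, adjusted p up to 0.051). In PV input it measured 2.59, 1.86, 2.26 and 2.18 CPM after KA, against 0, 0.317, 0.456 and 0.317 CPM after PBS (2.92 ± 0.64, adjusted p = 0.011), and in PV IP all KA values, 6.05, 1.60, 9.30 and 3.02 CPM, exceeded the PBS values, 0.0846, 0, 0.503 and 1.08 CPM, without passing (3.5 ± 1.08, adjusted p = 0.084). Il1a passed there with PV replicates 1 to 3 only (4.77, adjusted p = 0.04) and with DESeq2 (3.54, adjusted p = 0.0082). It also passed with replicate number as a block (4.10, adjusted p = 0.037), the stricter filter (3.5, adjusted p = 0.042) and with the 4 groups fitted together (3.49, adjusted p = 0.026). Il1b, which encodes IL-1beta, was untested against PBS in all fractions: its counts were 32 against 35 in CaMK2a IP, 17 against 0 in CaMK2a input, 18 against 0 in PV IP and 37 against 1 in PV input, KA against PBS. For CaMK2a input that is at least 7.22-fold higher, and for PV input a ratio of 41.7 with a 95% interval of 7.04 to 1692. The 35 counts in CaMK2a PBS IP were 10, 3 and 22 by library, beside 0 in the matched inputs. Il17d, a member of the IL-17 family, passed in CaMK2a input (0.80 ± 0.30, adjusted p = 0.044), and this call ended without KA replicate 1, 2 or 3 or PBS replicate 1 or 3 (0.65 to 1.00, adjusted p up to 0.14) and with DESeq2.

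Il34 encodes a ligand of the microglial receptor Csf1r that neurons make, and it fell. In CaMK2a IP it measured 5.69, 11.2 and 8.48 CPM after KA, against 19.0, 20.2 and 17.0 CPM after PBS (−1.13 ± 0.23, adjusted p = 0.0039), and in CaMK2a input 9.65, 11.3 and 11.8 CPM after KA, against 23.6, 18.8 and 25.0 CPM after PBS (−1.04 ± 0.18, adjusted p = 0.00024). Both fractions separate completely. In PV input it measured 5.43, 5.12, 3.90 and 12.0 CPM after KA, against 10.2, 12.7, 15.2 and 21.6 CPM after PBS, groups that overlap, with −1.20 ± 0.37, adjusted p = 0.058, and with replicate number as a block it passed (−1.26, adjusted p = 0.00033). It also passed without KA replicate 4 (−1.66, adjusted p = 0.0028) and with PV replicates 1 to 3 only (−1.42, adjusted p = 0.0011). PV IP gave −0.68 ± 0.46, adjusted p = 0.52. Il34 shares 75 exon bases with a gene annotated on the locus, so a small part of its reads may not be its own. Il33, an alarmin of glia, gave 0.58 ± 0.35 in CaMK2a IP, −0.10 ± 0.17 in CaMK2a input, −0.030 ± 0.40 in PV IP and 0.12 ± 0.22 in PV input, all with overlapping groups. Il18 gave −0.15 ± 0.55, 0.15 ± 0.27, 0.11 ± 0.81 and 0.49 ± 0.40 in the same order, none of them past the threshold.

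Il1rn encodes the secreted antagonist of the IL-1 receptor, and no PBS library of any group held a read of it. It measured 4.17, 4.39 and 7.05 CPM in CaMK2a KA input (at least 51.4-fold higher, adjusted p = 1.2e-06) and 5.82, 7.45, 16.2 and 10.5 CPM in PV KA input (at least 133-fold higher, adjusted p = 0.00013). All 14 KA libraries held reads, the IP ones at 1.06, 0.777 and 1.07 CPM in the CaMK2a line and 2.29, 0.282, 4.40 and 2.59 CPM in the PV line. In IP they were under the filter and were at least 10.8-fold and 40.1-fold higher than the floor of PBS. Without KA replicate 2 or any 1 of the PBS replicates, Il1rn entered the PV IP test and passed (adjusted p = 0.01 to 0.043). KA replicate 2 is the lowest KA library there. With 0 counts in PBS, Il1rn could enter through KA libraries alone and only be called higher, so these fits add no support for a rise.

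Of the interleukin receptors tested, 3 of 10 were higher after KA in CaMK2a IP, 4 of 16 in CaMK2a input, 1 of 12 in PV IP and 4 of 14 in PV input, and 0 were lower. Of all genes, 19.8%, 19.3%, 4.05% and 8.21% were higher in these fractions. Il1r1, the signalling receptor of IL-1, measured 24.7, 25.5 and 27.9 CPM in CaMK2a KA IP, against 8.74, 15.2 and 12.0 CPM in PBS IP (1.15 ± 0.20, adjusted p = 0.0017). In PV IP it measured 52.8, 31.1, 55.1 and 16.9 CPM after KA, against 11.7, 11.1, 8.39 and 13.5 CPM after PBS (1.77 ± 0.37, adjusted p = 0.008). KA and PBS libraries do not overlap in either IP. In CaMK2a input it measured 34.0, 32.1 and 36.6 CPM after KA, against 19.0, 21.6 and 18.9 CPM after PBS (0.79 ± 0.14, adjusted p = 0.00035), and in PV input 25.2, 35.6, 47.1 and 30.3 CPM after KA, against 16.9, 19.3, 20.4 and 8.08 CPM after PBS (1.07 ± 0.29, adjusted p = 0.032). The PV input call ended without KA replicate 2 or 3 or PBS replicate 1 or 2 (0.86 to 1.20, adjusted p up to 0.11). Il1r2, the decoy receptor of IL-1 next to Il1r1 on chromosome 1, was under the filter, with 36 counts after KA against 10 after PBS in CaMK2a IP, 21 against 3 in CaMK2a input, 47 against 0 in PV IP and 22 against 1 in PV input. Of the cluster of Il1r2, Il1r1, Il1rl2, Il1rl1 and Il18rap at chr1:40084768-40551699, Il1r1 was the one member tested in 3 fractions and 1 of 2 tested in PV input.

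Il17ra, the shared receptor chain for IL-17A and related cytokines, measured 18.8, 22.5 and 20.0 CPM in CaMK2a KA IP, against 10.9, 9.65 and 11.0 CPM in PBS IP (0.96 ± 0.15, adjusted p = 0.0011), and 39.2, 38.4 and 38.0 CPM in KA input, against 14.1, 17.7 and 11.9 CPM in PBS input (1.40 ± 0.16, adjusted p = 2e-06). PV input held 34.1, 35.5, 40.2 and 29.1 CPM after KA, against 25.2, 17.5, 16.1 and 12.2 CPM after PBS (0.94 ± 0.23, adjusted p = 0.018), a call that ended without KA replicate 3 or PBS replicate 2 or 3 (adjusted p up to 0.064). KA libraries stood above PBS libraries in all 3. PV IP gave 1.46 ± 0.43, adjusted p = 0.066, and it passed there with DESeq2 (1.47, adjusted p = 0.0079). Il4ra, the receptor chain for IL-4 and IL-13, rose in the same 3 fractions: 1.94 ± 0.32, adjusted p = 0.00013 in CaMK2a input, 1.67 ± 0.43, adjusted p = 0.014 in CaMK2a IP and 1.19 ± 0.34, adjusted p = 0.044 in PV input. Its CaMK2a IP call ended without KA replicate 3 or PBS replicate 2 or 3 (1.44 to 2.05, adjusted p up to 0.064), and its PV input call without any 1 of the 8 libraries (1.05 to 1.37, adjusted p up to 0.13). It shares 571 exon bases with the annotated gene Gm44876. Il13ra1, the IL-13 receptor chain, rose in both inputs, with 6.19 ± 1.37 CPM after KA against 2.89 ± 0.962 CPM after PBS in CaMK2a (SD, n = 3 each, 1.07 ± 0.31, adjusted p = 0.013) and 9.87 ± 3.13 CPM after KA against 4.17 ± 1.27 CPM after PBS in PV (SD, n = 4 each, 1.21 ± 0.34, adjusted p = 0.037). The first ended without KA replicate 1 or PBS replicate 3 (adjusted p up to 0.075), the second without KA replicate 2 or 3 or PBS replicate 1, 2 or 3 (adjusted p up to 0.13).

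Other interleukin receptors were not called. Il1rapl1, a synaptic adhesion protein related to the IL-1 receptor accessory protein, gave −0.0011 ± 0.14 in CaMK2a IP, −0.36 ± 0.23 in CaMK2a input, 0.46 ± 0.30 in PV IP and 0.034 ± 0.27 in PV input. It was lower in CaMK2a input without KA replicate 2, which held the most Il1rapl1 counts of its group (−0.71, adjusted p = 0.015). Il11ra1, the receptor of Il11, gave 0.23 ± 0.38, −0.18 ± 0.22, −0.065 ± 0.53 and −0.091 ± 0.33 in the same order, and since it has near-identical copies its counts are uncertain. Il17rd gave −0.46 ± 0.49, −0.14 ± 0.28, −0.20 ± 0.79 and −0.26 ± 0.40, and Il10rb −0.15 ± 0.42 in CaMK2a input, 1.84 ± 1.27 in PV IP and −0.34 ± 0.50 in PV input. Il2rg, the common gamma chain, passed in PV input with replicate number as a block (2.04, adjusted p = 0.031), with DESeq2 (1.89, adjusted p = 0.031) and without PBS replicate 2 (2.53, adjusted p = 0.047). In CaMK2a input it passed with the block (1.43, adjusted p = 0.045) and without PBS replicate 2 (2.36, adjusted p = 0.022). In both inputs PBS replicate 2 held the most Il2rg counts of its group. Il2rg shares 728 exon bases with the coding gene Gm20489 and Il10rb 569 with the coding gene Gm21970, both on the same strand.

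Few TNF family ligands could be tested, and 1 was called: 0 of 2 passed in CaMK2a IP, 1 of 5 in CaMK2a input, 0 of 3 in PV IP and 0 of 3 in PV input. The call is Tnf itself, at 2.74, 1.32 and 2.30 CPM in CaMK2a KA input against 0 in PBS input (at least 21.2-fold higher, adjusted p = 8e-05). In the other fractions it was untested, with 8 counts after KA against 0 after PBS in CaMK2a IP, 71 against 0 in PV IP and 49 against 2 in PV input. Of the 7 KA IP libraries 1 had none. Tnfsf12, which encodes TWEAK, the ligand of Tnfrsf12a, gave 0.088 ± 0.54, adjusted p = 0.92 in CaMK2a IP, −0.15 ± 0.33, adjusted p = 0.76 in CaMK2a input, −0.92 ± 0.73, adjusted p = 0.6 in PV IP and 0.28 ± 0.42, adjusted p = 0.74 in PV input. Without KA replicate 3, which held the most Tnfsf12 counts of its group, it was lower in CaMK2a input (−0.82, adjusted p = 0.021). It shares exon bases with a readthrough gene in the cluster at chr11:69682577-69696098, where 0 members were called.

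TNF family receptors moved in both directions. In CaMK2a IP 3 of 6 tested were higher after KA and 2 lower, in CaMK2a input 3 of 9 higher and 3 lower, in PV IP 1 of 8 higher, and in PV input 3 of 9 higher and 1 lower. Of all genes, 19.8%, 19.3%, 4.05% and 8.21% were higher and 15.3%, 15.7%, 0.801% and 3.36% lower in these fractions. Tnfrsf12a encodes Fn14, the TWEAK receptor. It measured 15.6, 10.6 and 17.0 CPM in CaMK2a KA input, against 1.58, 1.45 and 1.59 CPM in PBS input (3.22 ± 0.28, adjusted p = 6.7e-08), and 4.23, 2.78 and 3.11 CPM in KA IP, against 0.771, 1.03 and 0.292 CPM in PBS IP (2.28 ± 0.48, adjusted p = 0.0048). In PV IP it measured 7.33, 7.14, 20.9 and 33.2 CPM after KA, against 2.79, 0.704, 1.76 and 6.27 CPM after PBS (2.54 ± 0.67, adjusted p = 0.038), and in PV input 1.81, 4.78, 3.90 and 9.37 CPM after KA, against 0.225, 0.317, 1.03 and 1.82 CPM after PBS (2.46 ± 0.68, adjusted p = 0.035). The groups separate in the first 3 of these fractions and overlap in PV input. The PV calls lie near the threshold and did not always hold when 1 library was left out. In IP the call ended without KA replicate 3 or 4 or PBS replicate 1, 2 or 3 (1.98 to 3.28, adjusted p up to 0.12). In input it ended without KA replicate 2, 3 or 4 or PBS replicate 1, 2 or 3 (1.95 to 3.22, adjusted p up to 0.11).

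Tnfrsf1a and Tnfrsf1b encode the TNF receptors TNFR1 and TNFR2. Tnfrsf1a measured 40.5, 27.8 and 58.9 CPM in CaMK2a KA input, against 8.58, 7.52 and 9.78 CPM in PBS input (2.30 ± 0.23, adjusted p = 5.2e-07), and 15.8, 20.5, 15.8 and 28.1 CPM in PV KA input, against 3.26, 5.70, 3.99 and 5.54 CPM in PBS input (2.08 ± 0.28, adjusted p = 0.00047). In CaMK2a IP it measured 11.9, 1.00 and 5.37 CPM after KA, against 0.386, 1.03 and 0.973 CPM after PBS (3.0 ± 0.79, adjusted p = 0.015). Here KA replicate 2 lies within the PBS values, and the call ended without PBS replicate 1 (2.58, adjusted p up to 0.072 over the libraries left out). In PV IP all KA values, 11.6, 18.4, 6.90 and 10.1 CPM, exceeded the PBS values, 1.86, 2.66, 4.53 and 4.83 CPM, without passing (1.72 ± 0.53, adjusted p = 0.08). DESeq2 (1.73, adjusted p = 0.013) and the 4 groups fitted together (1.72, adjusted p = 0.0065) called it. Tnfrsf1b rose in both inputs, with 8.71 ± 1.46 CPM after KA against 4.96 ± 1.5 CPM after PBS in CaMK2a (SD, n = 3 each, 0.82 ± 0.27, adjusted p = 0.026) and 6.41 ± 1.35 CPM after KA against 2.58 ± 0.709 CPM after PBS in PV (SD, n = 4 each, 1.27 ± 0.34, adjusted p = 0.032). The CaMK2a call ended without KA replicate 3 or PBS replicate 1 (adjusted p up to 0.14), the PV call without KA replicate 2, 3 or 4 or PBS replicate 1, 2 or 3 (adjusted p up to 0.1). Tnfrsf22, a decoy receptor of the TRAIL group, rose in CaMK2a IP to 3.18, 1.22 and 1.93 CPM after KA, against 0.514, 0.643 and 0.195 CPM after PBS (2.21 ± 0.58, adjusted p = 0.015), a call that ended without PBS replicate 1 or 3 (1.80 to 2.48). Tnfrsf11b was tested against PBS in no fraction.

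Among the TNF receptors that fell is one of the best counted members, Tnfrsf21. It encodes the death receptor DR6 of neurons and measured 232, 223 and 206 CPM in CaMK2a KA IP, against 348, 339 and 360.2 CPM in PBS IP (−0.66 ± 0.084, adjusted p = 0.0003). In CaMK2a input it measured 271, 258 and 288 CPM after KA, against 340.1, 371 and 403 CPM after PBS (−0.45 ± 0.097, adjusted p = 0.0017), and in PV input 248, 206, 226 and 231 CPM after KA, against 293, 295, 290.4 and 311 CPM after PBS (−0.42 ± 0.11, adjusted p = 0.035). No KA library reached the level of a PBS library in these 3 fractions. In PV IP the values overlap, 170.2, 287, 204 and 239.8 CPM after KA and 253, 309.7, 221 and 297 CPM after PBS (−0.29 ± 0.19, adjusted p = 0.52). The PV input call ended without any 1 of the libraries other than KA replicate 4 (−0.46 to −0.37, adjusted p up to 0.098).

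Tnfrsf19 (TROY) fell in both CaMK2a fractions, to 22.9, 18 and 22.2 CPM in KA IP, against 34.5, 32.9 and 36.8 CPM in PBS IP (−0.72 ± 0.14, adjusted p = 0.003), and to 27.8, 30.6 and 28.5 CPM in KA input, against 41.7, 42.6 and 49.3 CPM in PBS input (−0.61 ± 0.13, adjusted p = 0.0014). PV fractions gave −0.27 ± 0.35, adjusted p = 0.77 in IP and −0.43 ± 0.16, adjusted p = 0.11 in input, and the input difference passed with replicate number as a block (−0.44, adjusted p = 0.016), without KA replicate 4 (−0.53, adjusted p = 0.038) and with PV replicates 1 to 3 only (−0.56, adjusted p = 0.0063). Tnfrsf13b (TACI, known from B cells) fell in CaMK2a input from low counts, at 0.477, 0.439 and 0.307 CPM after KA against 1.25, 2.17 and 1.32 CPM after PBS (−1.91 ± 0.57, adjusted p = 0.015), a call that ended without PBS replicate 2 (−2.06 to −1.60, adjusted p up to 0.11).

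**Figure D2:**
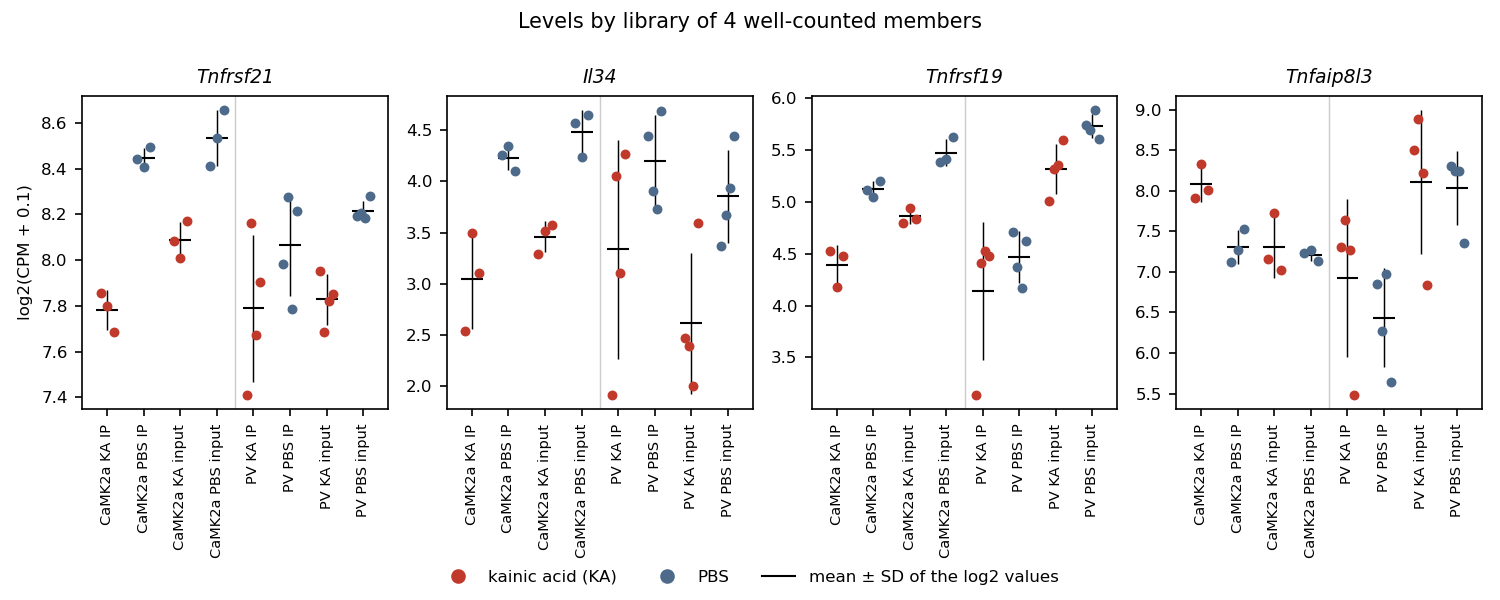
Level of Tnfrsf21, Il34, Tnfrsf19 and Tnfaip8l3 in each of the 28 libraries, as log2(CPM + 0.1), with KA left of PBS within a fraction, points for libraries and bars for mean ± SD. In CaMK2a IP the KA points of Tnfrsf21, Il34 and Tnfrsf19 lie below the PBS points and those of Tnfaip8l3 above them, and PV replicate 4 is low in Tnfaip8l3 in all 4 PV groups.

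Of the 7 Tnfaip genes, Tnfaip6 was called in all 4 fractions. It encodes TSG-6, a secreted hyaluronan-binding protein that IL-1 and TNF induce. In CaMK2a IP it measured 37.3, 12.9 and 32.7 CPM after KA, against 0.771, 2.83 and 1.27 CPM after PBS (4.23 ± 0.50, adjusted p = 0.00019), and in CaMK2a input 71.5, 49.4 and 56.6 CPM after KA, against 21.8, 26.4 and 20.0 CPM after PBS (1.38 ± 0.15, adjusted p = 1.8e-06). In PV IP it measured 17.5, 29.2, 32.7 and 39.9 CPM after KA, against 3.13, 3.52, 8.56 and 4.11 CPM after PBS (2.60 ± 0.42, adjusted p = 0.00083), and in PV input 35.2, 28.1, 37.1 and 44.7 CPM after KA, against 11.6, 15.4, 18.7 and 9.66 CPM after PBS (1.36 ± 0.24, adjusted p = 0.0025). No group overlaps its control, and after PBS the IPs hold less Tnfaip6 than the inputs. Tnfaip8l3, a lipid transfer protein of the TIPE family, rose in CaMK2a IP to 239.9, 321 and 258 CPM after KA, against 139, 154 and 185 CPM after PBS (0.78 ± 0.13, adjusted p = 0.0017), and its relative Tnfaip8l1 fell there, to 8.47, 8.22 and 10.3 CPM after KA, against 14, 13.0 and 16.0 CPM after PBS (−0.66 ± 0.18, adjusted p = 0.018). The Tnfaip8l1 call ended without PBS replicate 1 or 3 (−0.78 to −0.58, adjusted p up to 0.084). Tnfaip3 encodes A20, a feedback inhibitor of NF-kB, and was not called in any fraction. In PV IP it measured 13.7, 14.8, 17.9 and 9.65 CPM after KA, against 5.16, 1.10, 0.755 and 5.40 CPM after PBS (2.13 ± 0.62, adjusted p = 0.061). With all libraries it passed in PV IP with DESeq2 (2.15, adjusted p = 0.0072), with replicate number as a block (2.52, adjusted p = 0.027) and with the 4 groups of the line fitted together (2.13, adjusted p = 0.0088). It also passed there without KA replicate 4 (2.27, adjusted p = 0.047), without PBS replicate 4 (2.57, adjusted p = 0.044) or without both (2.70, adjusted p = 0.035). Its log2 fold change was 0.48 ± 0.24 in CaMK2a IP, 0.54 ± 0.24 in CaMK2a input and 0.62 ± 0.28 in PV input. Tnfaip8 gave −0.32 ± 0.44 in CaMK2a input, 0.096 ± 0.92 in PV IP and 0.36 ± 0.49 in PV input, and shares 1312 exon bases with C030005K06Rik on the opposite strand.

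In the authors' deposited table for CaMK2a IP, 23 of 86 listed members were higher after KA and 4 lower at an FDR under 0.05. In the authors' deposited table for CaMK2a input these were 27 and 6 of 107, in the authors' deposited table for PV IP 16 and 0 of 106, and in the authors' deposited table for PV input 29 and 1 of 111. Over all genes listed in the authors' deposited table for CaMK2a IP, 15.8% were higher and 12.8% lower, and in that for CaMK2a input 16.7% and 14%. In the authors' deposited table for PV IP the shares were 4.08% and 1.01%, and in that for PV input 7.46% and 3.08%. The tables also list members with few reads that were under the filter here in some fractions, Ccl7, Cxcl2, Il1r2 and Tnf among them. Of the 119 members, 47 were tested in no comparison of any kind, and their highest count in a library was 3 to 77.

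Markers of other cell types were counted beside these rises. Of all genes, 19.8%, 19.3%, 4.05% and 8.21% were higher in CaMK2a IP, CaMK2a input, PV IP and PV input. In the same order 15.3%, 15.7%, 0.801% and 3.36% were lower. Of the microglia markers tested, 4 of 12 were higher and 0 lower in CaMK2a IP, 5 of 14 higher and 2 lower in CaMK2a input, 0 of 13 in PV IP, and 1 of 14 higher and 1 lower in PV input. Endothelial and mural markers gave 0 of 7, 5 of 14, 0 of 14 and 2 of 14 higher in the same order, with 1 lower in CaMK2a input, and blood leukocyte markers 0 higher or lower in all 4, of 1 to 4 tested. Of 11 astrocyte markers 2, 3, 1 and 1 were higher and 0 lower, and of 10 oligodendrocyte markers 0 passed in any fraction. The summed level of the 7 leukocyte markers in all tables was 2.0 to 8.73 CPM in CaMK2a KA IP and 2.82 to 5.27 in PBS IP, 26.8 to 32.5 in KA input and 19.3 to 26.0 in PBS input, 4.89 to 11.6 in PV KA IP and 8.22 to 16.3 in PBS IP, and 16.5 to 24.8 in PV KA input and 14.3 to 17.4 in PBS input. The T cell marker Cd3e was at 0 in PV KA IP and PV KA input, and the neutrophil marker S100a9 at 0 in PV PBS input. Their part in the members' rises was not tested.

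Genes of the same pathways outside the name rule were counted as well. The background is 19.8%, 19.3%, 4.05% and 8.21% of all genes higher and 15.3%, 15.7%, 0.801% and 3.36% lower in CaMK2a IP, CaMK2a input, PV IP and PV input. Of a list of NF-kB response and feedback genes, 9 of 22 tested were higher and 2 lower after KA in CaMK2a IP, 16 of 26 higher and 1 lower in CaMK2a input, 4 of 25 higher in PV IP, and 13 of 26 higher and 1 lower in PV input. Their median log2 fold change was 0.44, 1.13, 0.73 and 1.22 in that order, beside the 0.01 and −0.02 over all genes. Gadd45b, a stress gene, changed by 4.17 ± 0.18 in CaMK2a IP, 4.51 ± 0.18 in CaMK2a input, 4.15 ± 0.53 in PV IP and 4.02 ± 0.62 in PV input. Nfkbiz, which encodes a nuclear IkB protein, changed by 2.72 ± 0.32 in CaMK2a IP and 2.91 ± 0.40 in PV IP. Of genes of IL-1 and TNF receptor signalling, 3 of 19, 6 of 21, 0 of 20 and 4 of 21 were higher and 2, 1, 0 and 0 lower, with medians of 0.33, 0.17, 0.17 and 0.10. The shares higher in CaMK2a IP and PV IP lie under those of all genes. Cflar, the caspase-8 inhibitor FLIP, changed by 2.47 ± 0.21 in CaMK2a IP, 1.37 ± 0.15 in CaMK2a input and 1.49 ± 0.28 in PV input. Of JAK-STAT genes, 6 of 19, 8 of 21, 1 of 18 and 1 of 19 were higher and 2, 3, 0 and 0 lower, and Stat3 was the one that passed in all 4 fractions, at 1.57 ± 0.17, 1.98 ± 0.12, 1.22 ± 0.25 and 1.39 ± 0.18. Of chemokine system genes with other names 1 of 7, 2 of 7, 0 of 6 and 0 of 6 were higher and 1, 0, 0 and 0 lower, and of TNF family genes with other names 0 of 2, 2 of 4, 0 of 3 and 0 of 3 were higher and 1, 0, 0 and 0 lower. Fas and Ltbr are the last 2, at 4.27 ± 0.82 and 1.43 ± 0.27 in CaMK2a input.

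Whether the KA response differed between fractions was tested directly, and 0 members passed in any of the 4 tests. In the CaMK2a line, IP minus input, 62 members were tested beside 0.103% of all genes called. In the PV line, IP minus input, 67 were tested beside 0.0253%. For CaMK2a IP minus PV IP 63 were tested beside 0.0934%, and for CaMK2a input minus PV input 66 beside 0%. An unadjusted p under 0.05 was reached by 9, 7, 4 and 1 members in that order. Over all genes tested it was reached by 984 of 11623, 504 of 11862, 719 of 11781 and 336 of 11816. DESeq2 called 1 member in the first. That one is Tnfaip6, whose KA effect was larger in CaMK2a IP than in CaMK2a input by 2.84 ± 0.54 on the log2 scale (adjusted p = 0.061). It passed with replicate number as a block (2.72, adjusted p = 0.0043), which fits the design since IP and input share a lysate. It also passed with no filter (2.86, adjusted p = 0.03), with DESeq2 (2.75, adjusted p = 0.015), and without KA IP replicate 1 (2.60, adjusted p = 0.016), KA IP replicate 2 (3.20, adjusted p = 0.00038) or PBS IP replicate 2 (3.43, adjusted p = 0.016). In the PV line the same difference was 1.28 ± 0.46 (adjusted p = 1). Cxcr4 differed by 2.80 ± 0.90 between CaMK2a IP and input (adjusted p = 0.34), and passed without PBS IP replicate 2 (5.75, adjusted p = 0.046). Errors of these differences are large, so one that missed the threshold does not show equal responses.

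Between IP and input of the same lysates, members were mostly lower in the CaMK2a IP. After KA, 6 of 54 tested members were higher in IP than in input and 33 lower, where 24.3% of all genes were higher and 25.8% lower. After PBS, 6 of 45 were higher and 25 lower, beside 32.6% and 31.6%. The median log2 fold change, IP over input, was −1.43 and −1.16 for the members after KA and after PBS, against −0.02 and −0.01 for all genes. In the PV line the counts were smaller, with 1 of 58 higher and 4 lower after KA beside 6.85% and 4.11% of all genes, and 2 of 44 higher and 6 lower after PBS beside 10.6% and 7.98%. Medians were −0.67 and −0.31, against 0.02 for all genes. All 14 microglia markers were lower in CaMK2a IP after both treatments, with medians of −2.79 after KA and −3.31 after PBS, and in PV IP 6 of 14 were lower after KA, with a median of −1.19, and 8 of 14 after PBS, with a median of −1.15. Their part in the members' depletion was not tested. With replicate number as a block, which pairs an IP with its own input, 11 members passed in the PV line after KA, 2 higher and 9 lower, and 10 after PBS. The shares of all genes above come from the fit without the block, so these counts have no background.

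Il1rapl2, a paralogue of Il1rapl1 on the X chromosome (chrX:137571549-138846955), was the only member higher in IP than in input in both lines after both treatments. It measured 17.7, 11.0, 35.0 and 16.2 CPM in PV KA IP, against 1.42, 5.24, 4.90 and 1.91 CPM in KA input (2.62 ± 0.51, adjusted p = 0.0041), and 9.64, 19.2, 22.1 and 16.5 CPM in PV PBS IP, against 2.81, 2.32, 1.82 and 1.90 CPM in PBS input (2.96 ± 0.37, adjusted p = 8.3e-05). In the CaMK2a line it measured 8.47, 7.33 and 5.26 CPM in KA IP, against 2.38, 1.87 and 0.920 CPM in KA input (1.96 ± 0.39, adjusted p = 0.0013), and 8.68, 5.79 and 7.30 CPM in PBS IP, against 4.08, 1.90 and 2.11 CPM in PBS input (1.43 ± 0.30, adjusted p = 0.00047). No IP library was as low as an input library of its group. Its KA effect passed in no fraction. The other members higher in CaMK2a IP were Il1rapl1 (0.82 ± 0.26 after KA, 0.50 ± 0.13 after PBS), Tnfaip3 (0.73 ± 0.23 and 0.83 ± 0.24), Il12rb2 (1.31 ± 0.23 and 1.17 ± 0.17) and Ccl28 (1.25 ± 0.39 and 0.87 ± 0.22), with Tnfaip8l3 (0.74 ± 0.19) after KA and Ccl27a (0.36 ± 0.11) after PBS. Il12rb2 shares 1519 exon bases with Serbp1 on the opposite strand, so its reads cannot be told apart from that gene's, and Ccl27a has near-identical copies. The Il1rapl1 call after KA ended without KA input replicate 1 or 3 or KA IP replicate 3 (0.61 to 1.19), and that of Tnfaip3 without KA input replicate 1 or 2 or KA IP replicate 2 (0.60 to 0.88). The Ccl28 call after KA ended without KA input replicate 3 or KA IP replicate 2 (0.80 to 1.47, adjusted p up to 0.12).

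Most chemokines that rose with KA were lower in CaMK2a IP than in its input after KA. Ccl3 averaged 7.48 ± 4.23 CPM in KA IP and 53.0 ± 21.6 CPM in KA input (SD, n = 3 each, −2.85 ± 0.42, adjusted p = 0.00019). Ccl2 gave −2.93 ± 0.60, adjusted p = 0.0017, Ccl4 −3.52 ± 0.66, adjusted p = 0.00095, Ccl9 −2.85 ± 0.39, adjusted p = 0.00011 and Cxcl10 −2.74 ± 0.45, adjusted p = 0.00042. By role 7 of 10 tested CC chemokines and 4 of 4 CXC chemokines were lower in this comparison, as were 4 of 4 TNF ligands, 6 of 8 TNF receptors and 7 of 12 interleukin receptors. Of all genes 25.8% were lower. In PV IP after KA, Ccl3 averaged 21.3 ± 8.53 CPM and in its input 47.6 ± 30.6 CPM (SD, n = 4 each, −1.11 ± 0.41, adjusted p = 0.11), and with replicate number as a block it was lower (−1.02, adjusted p = 0.0071). Cxcr4 (−1.43, adjusted p = 0.021), Il13ra1 (−1.61, adjusted p = 0.033), Il1rn (−2.23, adjusted p = 0.015) and Tnfaip8l3 (−1.13, adjusted p = 2e-05) were lower under the block as well, and Tnfrsf12a was higher (1.76, adjusted p = 0.0056). Without the block, Tnfaip8l3 passed without KA input replicate 4 (−1.39, adjusted p = 0.026), Cxcr4 without KA IP replicate 2 (−1.59, adjusted p = 0.037), Il1rn without KA IP replicate 3 (−2.45, adjusted p = 0.044), and Tnfrsf12a without KA input replicate 4 or KA IP replicate 1 or 2 (2.08 to 2.35, adjusted p up to 0.043).

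Members lower in IP than in input in all 4 comparisons were Il17ra, Il4ra and Tnfrsf19. Il4ra gave −1.75 ± 0.35 in CaMK2a after KA, −1.41 ± 0.41 after PBS, −3.06 ± 0.64 in PV after KA and −3.41 ± 0.91 after PBS. For Il17ra the values in that order were −0.94 ± 0.16, −0.45 ± 0.17, −1.25 ± 0.27 and −1.78 ± 0.32. Tnfrsf19, known from astrocytes and progenitor cells, gave −0.48 ± 0.17, −0.33 ± 0.099, −1.05 ± 0.31 and −1.22 ± 0.19 in the same order. Several of these calls did not always hold when 1 library was left out. That of Il17ra in CaMK2a after PBS ended without any of the 3 IP libraries or input replicate 2 (−0.58 to −0.29), and that of Il4ra in PV after PBS without input replicate 1 or 3 (−4.54 to −3.0). Those of Tnfrsf19 after KA ended in CaMK2a without any of the 3 inputs or IP replicate 2 or 3 (−0.55 to −0.37), and in PV without any of the 4 inputs or IP replicate 1 or 2 (−1.15 to −0.82). Tnfaip6 had its largest depletion after PBS in the CaMK2a line, with 1.62 ± 1.07 CPM in PBS IP and 22.7 ± 3.29 CPM in PBS input (SD, n = 3 each, −3.95 ± 0.29, adjusted p = 3.7e-09), against −1.12 ± 0.31, adjusted p = 0.0097 after KA. The KA call ended without KA input replicate 1 (−1.39 to −0.77 over the libraries left out). Tnfaip8l3 was the one member with calls in opposite directions, higher in CaMK2a IP after KA (0.74 ± 0.19, adjusted p = 0.0062) and lower in PV IP after PBS (−1.53 ± 0.27, adjusted p = 0.0013).

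**Figure D3:**
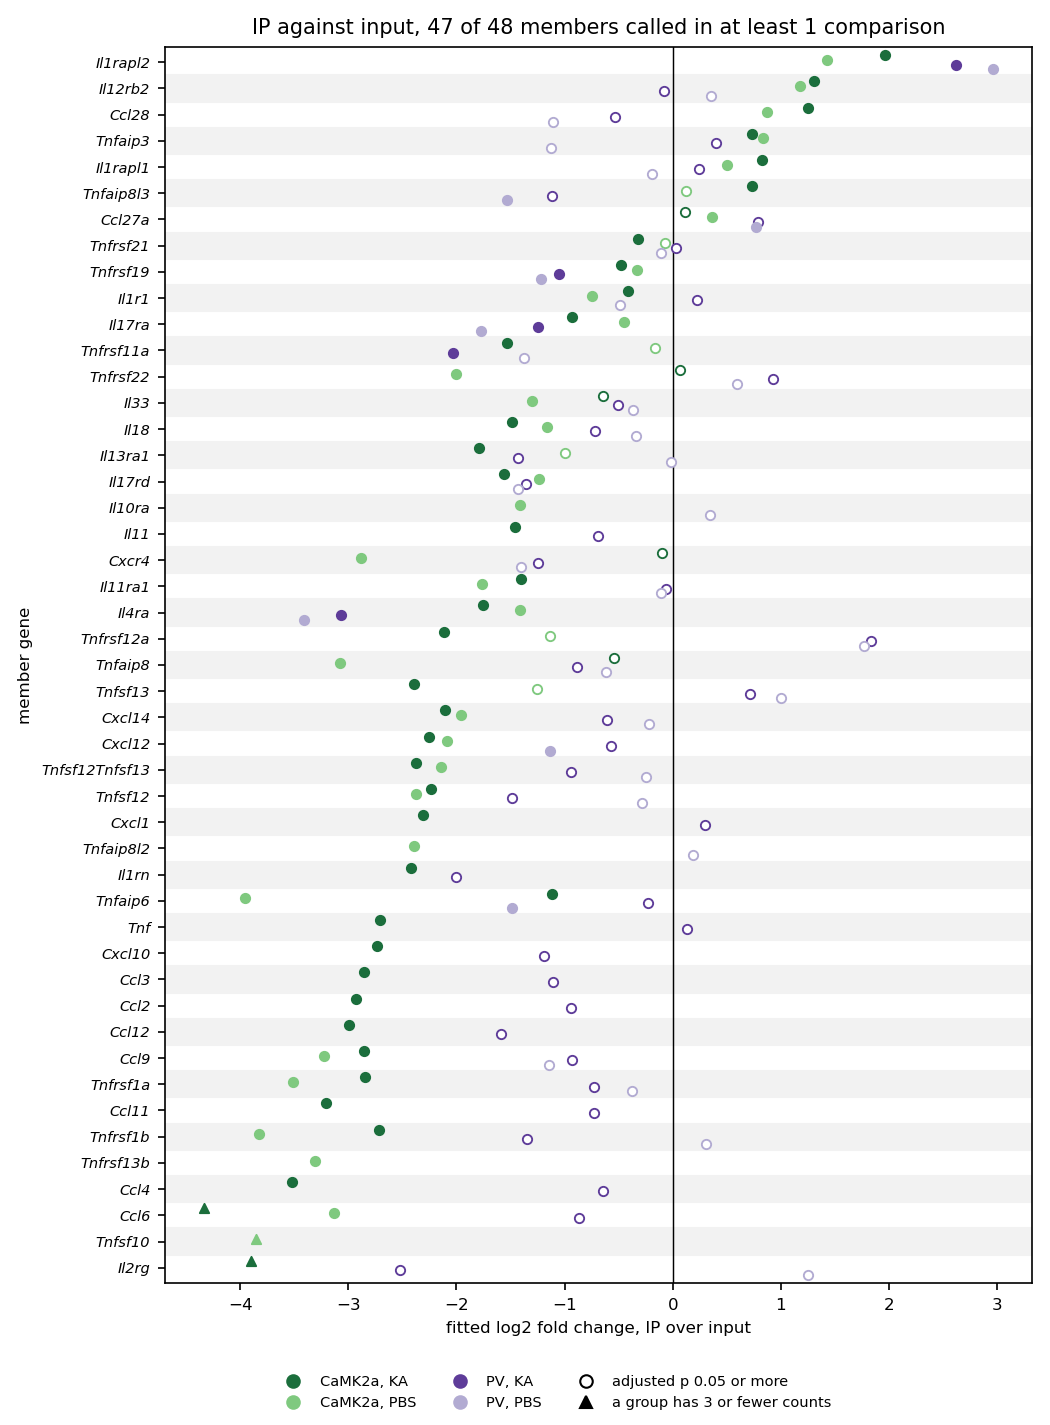
Fitted log2 fold change (IP over input) of 47 of the 48 members called in at least 1 of the comparisons, in CaMK2a after KA, CaMK2a after PBS, PV after KA and PV after PBS. Filled symbols passed an adjusted p under 0.05, open ones did not, and triangles mark fits in which a group held 3 counts or fewer. Il1rapl2 is filled on the higher side in all 4, and Il17ra, Il4ra and Tnfrsf19 on the lower side in all 4.

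On a scale per length, the deposited RPKM, Tnfaip8l3 and Tnfrsf21 were the 2 highest members in every group. Tnfaip8l3 averaged 34.5 ± 5.48 RPKM in CaMK2a KA IP and 21.3 ± 2.81 in PBS IP, and Tnfrsf21 17.1 ± 0.957 and 28.7 ± 0.282 RPKM (SD, n = 3 each), so their order differs between the 2 treatments. In PV IP Tnfaip8l3 averaged 16.2 ± 7.09 RPKM after KA and 11.5 ± 3.76 after PBS, and Tnfrsf21 16.7 ± 4.11 and 21.3 ± 4.56 RPKM (SD, n = 4 each), and after KA the 2 do not differ beyond their spread. After KA, Ccl3 was the third highest member in CaMK2a input, at 21.2 ± 9.01 RPKM, in PV input, at 17.4 ± 12.9 RPKM, and in PV IP, at 7.36 ± 3.43 RPKM. In CaMK2a input the level of Ccl3 then lies within the SD of Tnfaip8l3, at 22.8 ± 5.91 RPKM, and under that of Tnfrsf21, at 23.6 ± 1.89 RPKM, whose mean lies within the SD of Ccl3.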

How the data were processed

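RNA of hippocampal CA1 was measured in 28 libraries. Per the labels, RNA was amplified from 20.0 ng (CaMK2a line) or 2.5 ng (PV line) before library preparation, and reads were 75 bases from 1 end. Per the submitters' processing notes, BWA, edgeR and mm10 (GRCm38) were used by the authors, versions not given, and strandedness is not given in the sources used here. The deposited tables list coding genes, split into genes higher and genes lower per comparison, and the 2 parts were joined here. The deposited counts are whole reads per gene and library and were the values tested. The deposited RPKM columns are the authors' values per length and depth and were used for levels between genes only. The deposited fold change is the authors' linear ratio of groups, and the deposited p-value columns (FDR) come from the authors' edgeR analysis. The deposited CPM columns were not used. Counts that tables share were compared, and 0 of 189281 differed. No table used here compares IP with input after PBS, so that comparison was assembled here from counts.

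The main test was the quasi-likelihood test of edgeR 4.0.16 (R 4.3.3) with filterByExpr at a minimum count of 10, TMM factors and a prior count of 0.125, fitted on all genes of the groups compared, with Benjamini-Hochberg adjustment over all genes and a threshold of 0.05. SE was derived as |log2 fold change| divided by √F. Where a group held 0 counts, a fold is against a floor of 3 counts over the group, and with 1 to 3 counts a ratio has a 95% exact interval; both cover counting error only. Replicate numbers pair an IP with its own input by design, since both come from 1 lysate. Between the PV inputs after KA and PBS every same-numbered pair correlated over 0.1 in its deviations (r = 0.159, 0.145, 0.143 and 0.616). Even so, KA replicate 2 correlated best with PBS replicate 1, and PBS replicates 1 and 3 with KA replicate 2. Block results for KA against PBS thus rest on a pairing that is not set by design and that the correlations do not show throughout. The alternatives tried were DESeq2 1.42.0, upper-quartile or relative log expression factors, a stricter filter or none, replicate number as a block, all 4 groups of a line in 1 fit, each library left out, and PV replicates 1 to 3 only. Tables and figures were made in Python 3.11.15 (matplotlib 3.10.9, pandas 2.3.3, scipy 1.17.1, numpy 2.4.6). The test steps were tested on simulated data. The members, lists, named genes and tests were chosen with earlier results of these data known. Named genes are members past the threshold, a fixed set reported whatever they did, and per pathway list up to 4 called genes with the largest changes. Of that fixed set Il16 and Il1rap are not analysed here, and 1 other member is not reported here. Of the 119 members 118 were found in GENCODE M21, and 29 share exon bases with another gene, 14 of them with a coding gene.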

Additional observations from a re-analysis of the deposited data

Results flagged for a closer look

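In groups of 4 libraries, a library was marked where its gap to the nearest other library, over the range of the group, exceeded the 95% critical value of Dixon's test. Among 46 groups of called members with at least 10 counts in a library, 2 were marked, where chance marks about 1 in 20. Ccl12 in PV KA input replicate 4 measured 11.2 CPM, with the next library at 5.91 CPM (gap over range 0.839). Cxcl2 in PV KA input replicate 4 measured 7.0 CPM, with the next library at 3.14 CPM (gap over range 0.928). Both are in the same library, and both members were called in that comparison with or without it.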

How the results depend on the processing

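Counts are of members called, and the shares of all genes under each setting are not set beside them. With DESeq2, PV IP KA against PBS gave 13 (main 8), PV IP against input after KA 10 (main 5), and the KA effect of CaMK2a IP minus input 1 (main 0). Fitted to all groups of a line, KA against PBS gave 26 in CaMK2a IP (main 17), 20 in PV IP (main 8) and 14 in PV input (main 22). With no filter, CaMK2a IP minus input gave 1. The replicate block gave 11 for PV IP against input after KA and 1 for CaMK2a IP minus input. For KA against PBS, where the numbers do not pair by design, the block gave 16 in CaMK2a IP (main 17) and 26 in CaMK2a input (main 25). It gave 10 in PV IP (main 8) and 26 in PV input (main 22). In none of these did every library correlate best with its own number. The block also gave 40 in CaMK2a IP against input after KA, 34 after PBS, and 10 in PV IP against input after PBS.

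Leaving out 1 library at a time gave 12 to 21 in CaMK2a IP, 25 to 27 in CaMK2a input, 7 to 11 in PV IP and 14 to 21 in PV input for KA against PBS. The lowest PV input count came without KA replicate 3. For IP against input it gave 32 to 42 in CaMK2a after KA (main 39), 31 to 35 after PBS (main 31), 3 to 6 in PV after KA (main 5; 3 without KA input replicate 1, 2 or 3) and 5 to 10 after PBS (main 8; 5 without PBS input replicate 3). The KA effect of CaMK2a IP minus input gave 0 to 2, and the other 3 differences 0 to 0. With PV replicates 1 to 3 only, PV IP gave 9, PV input 23, PV IP against input 4 after KA and 8 after PBS. No log2 fold change of a member called in KA against PBS or IP against input changed its sign under these settings. Upper-quartile factors moved the median of all genes by −0.122 (KA) and −0.118 (PBS) in CaMK2a IP against input, and by −0.101 for KA against PBS in CaMK2a IP. In PV IP against input after KA they gave 5.81% of all genes higher and 5.60% lower (main 6.85% and 4.11%). The causes were not tested. In groups where libraries held under 10 counts, as for Il1b, Tnf and Il1r2 in several fractions, folds carry a large counting error.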

Other observations

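Several members had nearly all their reads of a group in 1 library, and they are named after their values were seen. Tnfsf13 (APRIL) had 105 counts in PV KA IP replicate 3 and 17 in the other 3 libraries together, and Il17b had 45 in PV KA IP replicate 4 and 1 in the others. Ccr6 had 22 counts in PV KA IP replicate 3 and 0 in the others. In PV PBS IP, Tnfrsf8 (CD30) had 25 counts, Ccr10 19 and Ccr9 18 in replicate 3, with 0 in the others, and Il12a had 39 in replicate 1 and 9 in the others. In PV KA input, Il31ra had 32 counts in replicate 4 and 2 in the others. Of these, only Tnfsf13 was tested for KA against PBS in the fraction concerned, and it was not called. The others were under the filter there, so they could not be called. No explanation was tested.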
